A study of Homo sapiens with 8 samples.

Results

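The genes examined were 8 mRNA export factors, chosen by name: NXF1, NXT1, ALYREF, THOC1, THOC2, THOC5, DDX39A and DDX39B. Their rows in the 10 deposited splicing tables were taken. Of the 8 genes, 7 had splicing events, out of 12047 genes with an event. They held 95 of the 89379 events listed in whole cells and 32 of the 43559 listed in the cytoplasm. NXT1 had no event in any table. An event is a stretch of RNA with 2 competing forms: a retained intron (RI), a skipped exon (SE), an alternative 5′ or 3′ splice site (A5SS, A3SS) or a pair of mutually exclusive exons (MXE). The cells were U2OS, a human osteosarcoma cell line, transfected with 20 nM of EGFP siRNA, against a green fluorescent protein gene that serves as control, or of CHERP #2 siRNA, and harvested after 48 h. Whole-cell and cytoplasmic RNA were sequenced separately, and each of the 4 combinations of siRNA and fraction had 2 of the 8 libraries. The 4 groups share 1 cell line, and the depleted groups share 1 siRNA. The methods describe the libraries of a group as biological replicates. The p-values set the difference between groups against the spread between libraries of the same group.

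An mRNA leaves the nucleus once proteins that load onto it during transcription and splicing hand it to a receptor for the nuclear pore. TREX is the complex that couples these steps. It consists of the THO core, in which THOC2 is the large scaffold and THOC1 and THOC5 are further subunits, of a DEAD-box RNA helicase, DDX39B (also called UAP56) or its close paralog DDX39A, and of the adaptor ALYREF. The receptor is the heterodimer of NXF1, which contacts the RNA and the pore, and its partner NXT1. CHERP, the protein depleted here, binds the U2 snRNP-associated splicing machinery, and the comparisons asked how transcripts of the export factors stood after its loss.

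Reads summed over all events, taken as the depth, ran from 29409956 to 35664568 in the whole-cell libraries and from 5370756 to 6580099 in the cytoplasmic ones. In whole cells CHERP itself had 77 to 103 reads in the controls and 3 to 10 in the depleted libraries, a log2 fold change of -3.46 (limma, adjusted p = 0.0215). In the cytoplasm it had 21 to 31 and 3 to 4 reads. Of the mesenchymal and bone markers, vimentin (VIM) had at least 57402 reads per whole-cell library, the bone regulator RUNX2 had at most 18, and SPARC, COL1A1 and COL1A2 had no event to measure. The markers of other cell types (PTPRC, EPCAM, ALB and CD3E) had no event either. The effective length of a spliced form was 144 positions in whole cells and 73 in the cytoplasm, so fraction and read length cannot be told apart.

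The splice sites of the introns and exons that the results turn on are shown first, from the GRCh37 genome (hg19, the build of the tables), 5′ to 3′ on the transcribed strand. In each, capitals mark bases inside the intron and lower case marks exon bases. A 5′ site is given as 3 exon and 6 intron bases, and a 3′ site as 20 intron and 3 exon bases.
NXF1 intron 10, 5′ site: cagGTCAGT
NXF1 intron 10, 3′ site: TTCTGTCCCGTTCTTGACAGcgc
DDX39B intron 6, 5′ site: gatGTAAAT
DDX39B intron 6, 3′ site: ACCCCCTTCCTCCCCCCCAGcca
DDX39B exon 2, upstream 3′ site: TTTTTTTTTCCCCCCTCCAGctc
DDX39B exon 2, downstream 3′ site: TTCTTCCCCTGCCGGCCCAGtta
THOC5 exon of 33 nt, 3′ site before it: CCTCCTGTTTCCATCATCAGctc
THOC5 exon of 33 nt, 5′ site after it: aggGTGAGT
The NXF1 intron lies at chr11:62566048-62567848, between coding exons 10 and 11. It is 1801 nt long with a GC content of 56.9%. This intron is known for a constitutive transport element, an RNA structure bound by NXF1 protein, through which a transcript that keeps the intron can be exported. The DDX39B intron lies at chr6:31500689-31503143, is 2455 nt long and has a GC content of 50.1%. Of the last 20 bases before the exon, 70% were pyrimidines in NXF1 and 85% in DDX39B. Both introns are retained in at least 1 transcript of the GENCODE annotation, 1 for NXF1 and 2 for DDX39B, and each encloses 1 annotated exon.

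The abundance of 5 export factors differed between CHERP-depleted and control cells in at least 1 fraction, and the changes went in both directions. THOC5 rose in both fractions. DDX39A and THOC2 fell in both, to 48.6% and 49.7% of the control in whole cells. NXF1 and THOC1 fell in the cytoplasm, and their lower whole-cell values did not pass the threshold. ALYREF and DDX39B did not pass it in either fraction. Abundance was the sum over a gene's exon and splice-site events of reads per effective position, scaled by library, and limma was run on log2(value + 0.01). In whole cells 1 member rose, 2 fell and 4 did not pass, where 27% of the 9660 genes tested passed (13.3% higher and 13.7% lower). In the cytoplasm 1 rose, 4 fell and 2 did not pass, where 39% of 7293 genes passed (19.1% higher and 19.9% lower). The median log2 fold change of the 7 measured members was -0.45 in whole cells and -0.54 in the cytoplasm, beside 0.01 and -0.01 over all genes. The median-ratio scaling itself holds the all-gene median near no change. With scaling by the library total it was -0.04 in whole cells and -0.11 in the cytoplasm. The whole-cell calls rest on both CHERP libraries, since without the first or the second no member passed, and 469 and 530 genes passed in all. In bulk RNA, fewer expressing cells and less RNA per cell cannot be told apart.

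**Figure D1:**
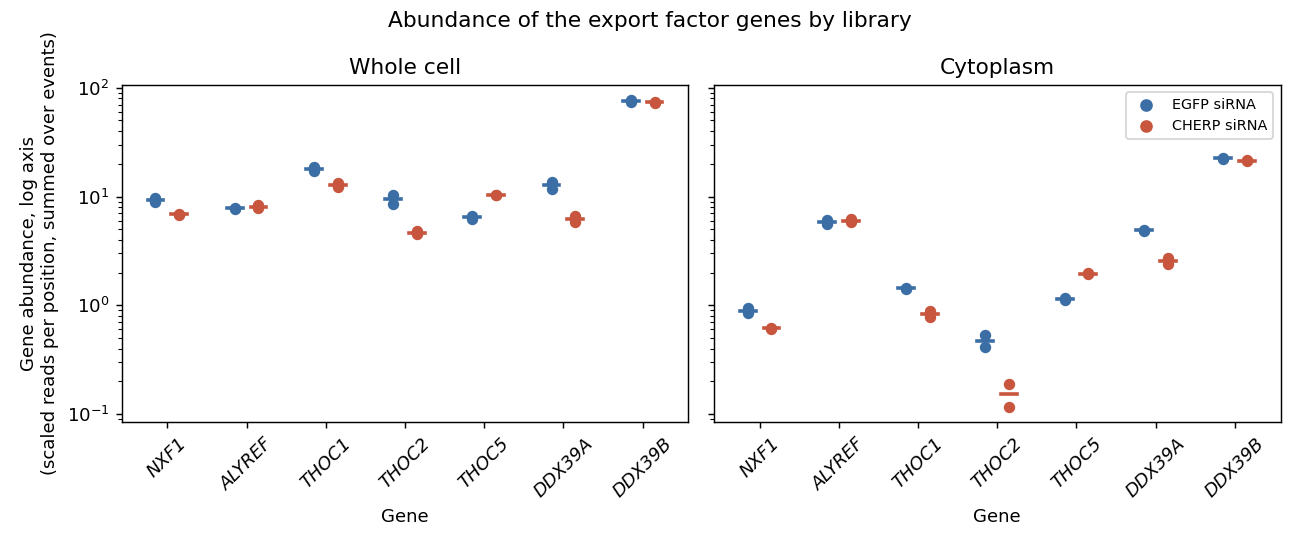
Abundance of the 7 measured export factor genes in each library (points) with the group mean (bars), in scaled reads per position on a log axis, for EGFP and CHERP siRNA in whole cells and in the cytoplasm. The libraries were scaled within each fraction, so levels compare across siRNAs within a panel. The THOC5 points of CHERP-depleted cells lie above the control and those of DDX39A, THOC2, THOC1 and NXF1 below, while the ALYREF and DDX39B points lie close together.

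In the receptor, NXF1 had an abundance of 8.96 and 9.73 scaled reads per position in the control libraries of whole cells and of 6.94 and 6.76 in the CHERP-depleted libraries. Both depleted libraries lay below both controls. With 2 libraries per group such a separation, here and below, can often arise without a difference. The share of all genes or events that separate was not counted. The log2 fold change was -0.45 ± 0.13 (SE) with an adjusted p of 0.0627. With only the event of most reads it was -0.16 (adjusted p = 0.458). In the cytoplasm the values were 0.938 and 0.855 against 0.608 and 0.617, again without overlap, and the log2 fold change of -0.54 ± 0.11 passed (adjusted p = 0.0223). It missed the threshold when any 1 of the 4 cytoplasmic libraries was left out, with adjusted p-values between 0.05926 and 0.08656. All 9 whole-cell NXF1 events with at least 20 reads per library on average had a lower read density after CHERP depletion, with log2 ratios between -1.01 and -0.16. The abundance is the sum over these same events, which can share reads. Such counts, here and below, therefore describe the sum and are not separate support for it. The whole-cell NXF1 sum includes an A5SS event over intron 10 and an SE event of exon 11 beside that intron. The sum is therefore not separate from the retention of intron 10 given below. NXT1, the partner of NXF1, had no splicing event and was not measured here.

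In the THO core, the scaffold subunit THOC2 had whole-cell values of 8.51 and 10.4 in the controls and of 4.50 and 4.83 after depletion, a log2 fold change of -1.01 ± 0.16 (adjusted p = 0.0165). In the cytoplasm the values fell from 0.411 and 0.529 to 0.117 and 0.191, with a log2 fold change of -1.58 ± 0.27 (adjusted p = 0.0147) on only 12 to 51 reads per library. That call was lost without the second EGFP library (adjusted p = 0.06118) and without the filter on reads (adjusted p = 0.0518). All 17 whole-cell THOC2 events with at least 20 reads, which are parts of that sum, were lower. THOC1 had 17.2 and 18.9 in the control and 12.2 and 13.4 in the depleted whole-cell libraries, a log2 fold change of -0.49 ± 0.14 that did not pass (adjusted p = 0.0578). In the cytoplasm it fell from 1.43 and 1.45 to 0.783 and 0.890 (log2 fold change -0.78 ± 0.12, adjusted p = 0.0114), a call lost without the second EGFP library (adjusted p = 0.05211). THOC5 moved the other way. Its whole-cell values were 6.27 and 6.62 in the controls and 10.4 in both depleted libraries, a 1.61-fold rise (log2 0.69 ± 0.12, adjusted p = 0.0226). Its cytoplasmic values were 1.12 and 1.18 against 1.99 and 1.92, a 1.70-fold rise (log2 0.76 ± 0.11, adjusted p = 0.00943). All 9 whole-cell and all 3 cytoplasmic THOC5 events with at least 20 reads, again parts of the sums, were higher.

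The helicase paralogs differed in how far their values moved. DDX39A had 13.7 and 11.8 in the control whole-cell libraries and 6.56 and 5.81 after depletion (log2 fold change -1.04 ± 0.15, adjusted p = 0.0148). In the cytoplasm it had 4.91 and 4.87 against 2.39 and 2.73 (log2 fold change -0.93 ± 0.12, adjusted p = 0.0080). DDX39B had 76.7 and 74.3 in the controls and 73.7 and 73.1 after depletion, so the depleted libraries lay just under the controls, with a log2 fold change of -0.04 ± 0.12 (adjusted p = 0.822). Its cytoplasmic log2 fold change was -0.07 ± 0.10 (adjusted p = 0.622). The paralogs are close in sequence, and how reads that match both were assigned is not given in the sources used here, so reads may be shared between them. The difference between the paralogs' changes was not tested. The adaptor ALYREF had 7.64 and 7.91 against 8.28 and 7.80 in whole cells, overlapping ranges with a log2 fold change of 0.05 ± 0.13 (adjusted p = 0.794), and 0.05 ± 0.11 in the cytoplasm (adjusted p = 0.770), where scaling by the library total turned the log2 fold change to -0.05.

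The effect of CHERP siRNA did not differ detectably between fractions for any member. Over events listed in both fractions, 1 gene of 7499 tested (0.0133%) passed the interaction of siRNA and fraction, and no member did. THOC2 had the lowest p among the members. Its log2 fold change was -0.98 in whole cells and -1.57 in the cytoplasm, a difference of -0.59 ± 0.34 (SE) with an adjusted p of 0.966. The cytoplasmic calls for NXF1 and THOC1 beside the missed whole-cell calls therefore do not show that these genes responded more in the cytoplasm. The log2 differences between fractions were -0.02 ± 0.39 for NXF1 and -0.22 ± 0.19 for THOC1. For NXF1 this rests on 1 shared event, with 18 to 36 reads per cytoplasmic library. Its log2 fold changes were -0.34 in whole cells and -0.36 in the cytoplasm. The cytoplasmic values of that event overlapped (0.449 and 0.239 in the controls, 0.277 and 0.232 after depletion). The NXF1 difference therefore does not compare the abundance changes given above.

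Of 28 further genes of mRNA export, 24 could be tested in whole cells, where 1 fell and 23 did not pass, and 20 in the cytoplasm, where 5 fell and 15 did not pass. No gene of this list rose. Over all genes 27% passed in whole cells and 39% in the cytoplasm, 13.7% and 19.9% with a lower value, so the list had few calls in whole cells and a share of falls near the background in the cytoplasm. CHTOP, a TREX adaptor, fell in both fractions, with log2 fold changes of -0.90 (adjusted p = 0.0138) and -0.56 (adjusted p = 0.0306). In the cytoplasm XPO1, the exportin for many proteins and some RNAs, fell by 0.77 on the log2 scale (adjusted p = 0.0165), and the pore-side helicase DDX19A fell by 0.71 (adjusted p = 0.0122). The shuttling splicing factors SRSF1 and SRSF3 fell by 0.50 and 0.48 (adjusted p = 0.0343 and 0.0267). The median log2 fold change of the list was -0.12 in whole cells and -0.32 in the cytoplasm. Among the THO subunits in the list, THOC3, THOC6 and THOC7 had whole-cell log2 fold changes of -0.58, -0.65 and 0.24, none of which passed (adjusted p = 0.490, 0.0788 and 0.497).

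**Figure D2:**
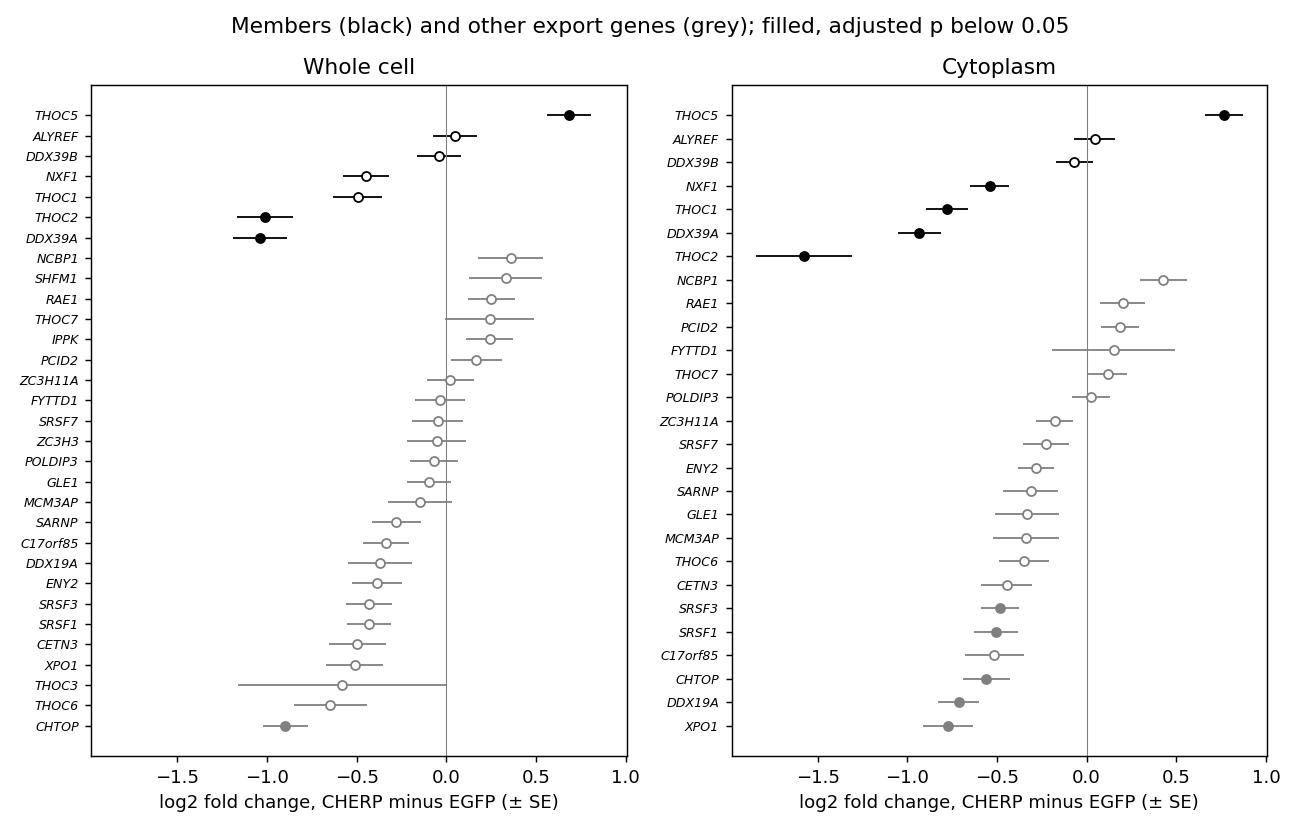
log2 fold change of abundance (CHERP minus EGFP, with the limma SE as bars) for the members (black) and the other export genes (grey) in each fraction, with filled points for an adjusted p under 0.05. THOC5 is the 1 filled point on the right in each panel, and the filled points on the left include DDX39A, THOC2 and CHTOP in both.

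Retained introns were listed for 4 members in whole cells, 9 events in all, and for no member in the cytoplasm. The retention level is the read density over the intron divided by the summed densities of the intron and of its spliced junction. An intron without a row has no level here. The NXF1 intron had levels of 0.179 and 0.164 in the control and of 0.286 and 0.310 in the depleted libraries. Both depleted libraries lay above both controls, and the mean level went from 0.172 ± 0.011 to 0.298 ± 0.017 (SD of 2 libraries). The level was higher by 0.126 with an unadjusted p of 0.00301 in the quasi-binomial test and an adjusted p of 0.344. No RI event of 3717 passed that test in whole cells (0%), and 398 had an unadjusted p under 0.05. By limma on the log2 odds none passed either, and 338 had an unadjusted p under 0.05. With a dispersion trend estimated only where the rarer form had 10 reads or more, 2.04% of the RI events passed, and the NXF1 intron was the 1 member event among them (adjusted p = 0.0419). The call thus rests on how the spread between libraries was estimated.

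The 2 forms of the NXF1 intron moved unequally. The intron carried 301 and 345 reads in the controls and 378 and 333 after depletion, against 102 and 130 spliced reads in the controls and 70 and 55 after depletion. Scaled per position and library, the intron form had 0.169 and 0.170 in the controls and 0.184 and 0.171 in the depleted libraries, a ratio of 1.05. The spliced form had 0.771 and 0.866 against 0.460 and 0.381, a ratio of 0.514. The higher level therefore went with a lower density of spliced reads, while the density over the intron stayed within 1.05 times the control.

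**Figure D3:**
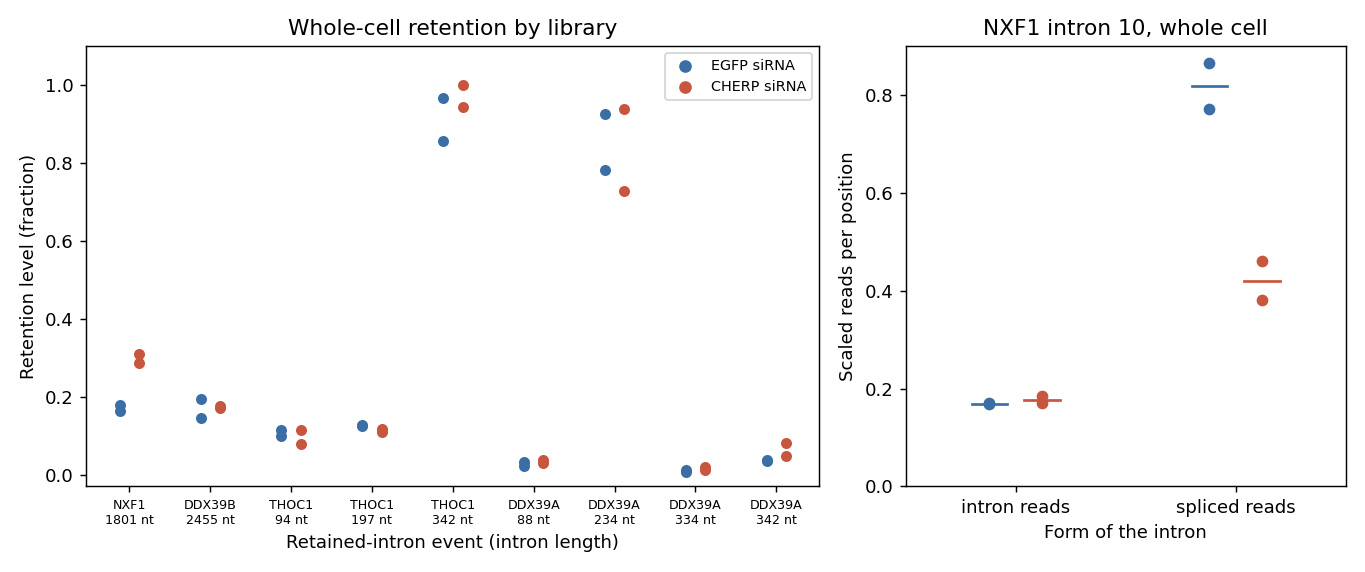
Left, retention level in each whole-cell library for the 9 retained-intron events of the members, named by gene and intron length in nucleotides. Right, scaled reads per position of the intron and spliced forms of NXF1 intron 10 in each library, with bars for the means. The NXF1 levels of the depleted libraries (0.286 and 0.310) lie above the controls, and the points of the spliced form separate where those of the intron form do not.

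The other 8 retained-intron events did not pass under either dispersion rule. DDX39B intron 6 carried the most reads, with levels of 0.145 and 0.193 in the controls and of 0.172 and 0.177 after depletion, so the depleted libraries lay between the controls (adjusted p = 0.916). In DDX39A, intron 6 (chr19:14520686-14521027) had levels of 0.0349 and 0.0370 against 0.0806 and 0.0467, without overlap and with an adjusted p of 0.470. DDX39A introns 8 and 2 had mean levels of 0.0270 and 0.00884 in the controls and of 0.0340 and 0.0158 after depletion. In THOC1, introns 13 and 14 had mean levels of 0.126 and 0.107 in the controls and of 0.114 and 0.0963 after depletion. The remaining DDX39A event is a 234-nt stretch of intron 6, and the remaining THOC1 event spans introns 13 and 14 with the exon between them. The spliced form had at most 3 reads per library in the DDX39A event and at most 4 in the THOC1 event, so their levels, between 0.727 and 1, are poorly known. Of the other export genes, 8 had 11 retained-intron events in whole cells. None passed the main test, and 1 passed with the other dispersion trend. It was the CHTOP event, whose levels were 0.136 and 0.176 in the controls and 0.321 and 0.332 after depletion (adjusted p = 0.336, and 1.42e-05 with the other trend).

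Among the other event types, 0 of the 86 remaining whole-cell and 0 of the 32 cytoplasmic member events passed between CHERP and EGFP siRNA. Over all genes none of the SE, A5SS or A3SS events passed in either fraction (0% of each), and 0.0222% of the MXE events passed in whole cells and 0% in the cytoplasm. With the dispersion trend of the rarer form no further member event passed either. That rule called 0.861% of the SE, 0% of the A5SS, 0.102% of the A3SS and 0.844% of the MXE events in whole cells. In the cytoplasm it called 2.89% of the RI, 0.912% of the SE, 0.926% of the A5SS, 0.658% of the A3SS and 0.024% of the MXE events. Counting retained introns, 8 member events in whole cells and 1 in the cytoplasm had an unadjusted p under 0.05. These are 8.42% and 3.12% of the member events, beside 7.58% and 3.12% of all events, so the members' shares lay near the background. limma on the log2 odds called none of them either, with 5 and 1 under an unadjusted p of 0.05 (5.26% and 3.12%, beside 8.39% and 8.32% of all events). In simulated whole-cell data with a log-odds change of 1.5 the test recovered 69% of 200 changed RI events, 49.5% of changed A3SS events and 0.5% of changed SE events. On the same simulated SE events the dispersion trend of the rarer form recovered 69.5% with 1 false call, and a floor at 1 before the moderation, a rule chosen after seeing the data, recovered 66% with 0. In simulated cytoplasmic data the main test recovered less, 37.5% of 120 changed RI events and 13.3% of 195 changed A3SS events. Of 200 changed SE events there it recovered 0%. In this simulated setting the main test hardly detected a change of exon skipping in either fraction. The setting differs from the data, with 1 dispersion for all events, so these shares do not give the power on the data. The 0 calls among SE events do not show that exon skipping was unchanged. Most member events were also close to a single form, with the rarer form at a mean control level under 0.05 in 72 of 95 whole-cell events and in 17 of 32 cytoplasmic events.

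DDX39B had a splice-site choice in which both sites were used. Exon 2 can begin at either of 2 competing 3′ sites, printed above, which differ by 130 nt of the 5′ UTR (chr6:31508312-31508441). In whole cells the same choice was also listed after another upstream exon (chr6:31508930-31509104). That event did not pass, and its levels are not given here. The values that follow are for the choice after the exon at the 5′ end of the gene. Inclusion of the 130 nt in whole cells was 0.536 and 0.568 in the controls and 0.673 and 0.656 after depletion, with both depleted libraries above the controls. The level was higher by 0.112, with an unadjusted p of 0.00146 and an adjusted p of 0.430. The adjusted p was 0.0119 when only events with at least 10 reads were tested and 0.115 with the dispersion trend of the rarer form, so this call too depends on the rule. Reads of the long form numbered 715 and 812 in the controls and 998 and 940 after depletion, and those of the short form 325 and 324 against 255 and 259.

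In the cytoplasm the same 130 nt were included less than in whole cells. The cytoplasmic levels were 0.152 and 0.324 with EGFP siRNA and 0.0647 and 0.285 after CHERP depletion. All 4 cytoplasmic libraries lay below all 4 whole-cell libraries. The difference was -0.314 with EGFP siRNA (adjusted p = 0.00306) and -0.489 with CHERP siRNA (adjusted p = 1.64e-07), in comparisons in which 7.21% and 7.78% of all A3SS events passed (5.9% and 6.3% with a lower level in the cytoplasm). These calls were lost by limma on the log2 odds (adjusted p = 0.236 and 0.0628). The cytoplasmic event held only 23 reads per library on average, against 1157 in whole cells. In the EGFP comparison this call was lost without any 1 of the 4 whole-cell or 2 cytoplasmic EGFP libraries, with adjusted p-values between 0.07782 and 0.5443. In the CHERP comparison it was lost only without the first cytoplasmic CHERP library (adjusted p = 0.3108). The interaction of siRNA and fraction at this event had an adjusted p of 0.778. A further DDX39B site, which adds 84 nt before exon 4, had mean levels of 0.00932 in whole cells and 0.00121 in the cytoplasm with EGFP siRNA (adjusted p = 0.0202), and 0.00605 and 0.00439 with CHERP siRNA (adjusted p = 0.750). The call of the 84-nt site was lost without any 1 library and by limma. No other of the 23 member events listed in both fractions passed, where 3.55% and 4.25% of all SE events, 5.69% and 8.3% of the A5SS events and 35.4% and 36.2% of the MXE events passed with EGFP and CHERP siRNA. For the interaction 0% of the SE and A3SS, 0.0487% of the A5SS and 0.103% of the MXE events passed.

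Read density at the ends of DDX39B differed between fractions. At the 130-nt event the log2 ratio of cytoplasm to whole cell with EGFP siRNA was -3.66, while at the event nearest the 3′ end of the gene it was 0.12. In ALYREF the ratio was -1.23 at the event nearer the 5′ end and 1.07 at the other. Over 4473 genes with at least 2 such SE events, the median ratio was -0.15 at the first and -0.09 at the last. The part of this difference in the DDX39B levels was not tested.

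THOC5 carries a cassette exon of 33 nt (chr22:29927067-29927099), present in 2 annotated transcripts and absent from the canonical one, whose length keeps the reading frame. In the cytoplasm its inclusion was 0.250 and 0.205 in the controls and 0.106 and 0.0711 after depletion, without overlap. The mean difference was -0.139 (unadjusted p = 0.0236, adjusted p = 0.608, and 0.121 with the dispersion trend of the rarer form). In whole cells inclusion was 0.0797 and 0.172 against 0.0765 and 0.0466, with an adjusted p of 0.546. Reads including the exon numbered 16 and 15 against 14 and 8 in the cytoplasm, and reads skipping it 33 and 40 against 81 and 72. The skipping form thus had 2.02 times the control density, beside 0.669 times for the including form.

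**Figure D4:**
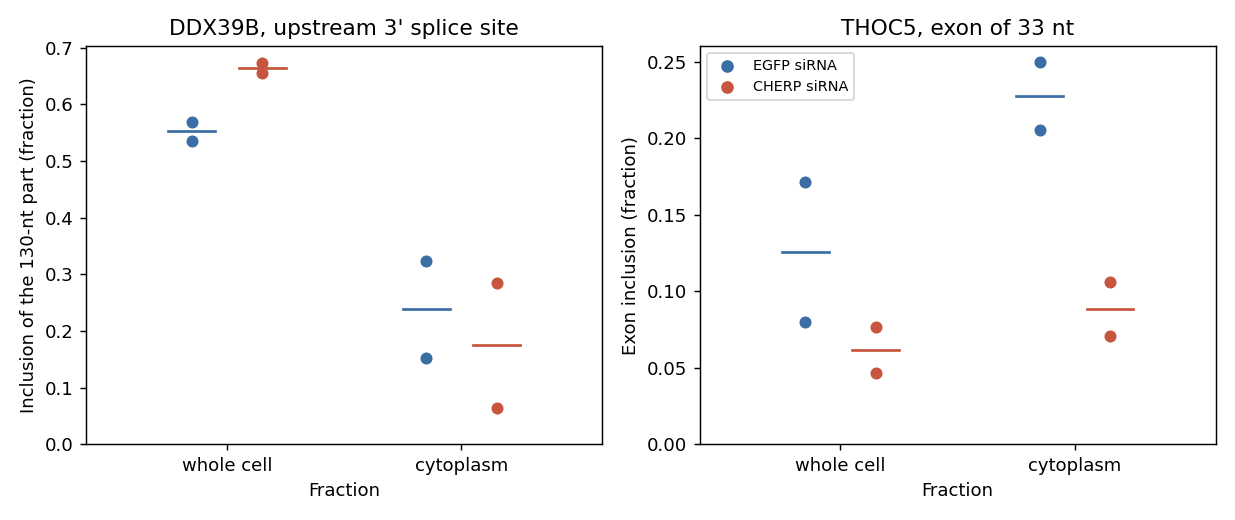
Inclusion level by library (points) and group mean (bars) in whole cells and the cytoplasm, for the 130-nt part of DDX39B exon 2 (left) and the 33-nt exon of THOC5 (right). The DDX39B levels in the cytoplasm (0.0647 to 0.324) lie below those in whole cells, and the cytoplasmic THOC5 levels of the depleted libraries lie below the controls.

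For the other members the events with the most reads did not pass in any comparison. The ALYREF exon 4 had mean inclusion levels of 0.996 and 0.998 in whole cells and of 0.999 and 1 in the cytoplasm, control first. The most read THOC1 exon, exon 20, had 0.998 and 1 in whole cells, and in the cytoplasm exon 8 had 0.901 and 1 (adjusted p = 0.608). In NXF1, cytoplasmic exon 17 had 0.990 and 1. The most read cytoplasmic DDX39A event, an exon of 185 nt in few transcripts, had 0.00351 and 0.0111. In THOC2, exon 36 had 0.973 and 0.981 in the controls and 0.866 and 0.928 after depletion (adjusted p = 0.546), and a site that adds 81 nt had cytoplasmic levels of 0.154 and 0.174 against 0.322 and 0.0732 on 13.75 reads per library. One THOC2 event was picked after its values were seen, because of its intron (chrX:122744815-122745290), which begins with AT and ends with AC as some introns of the minor spliceosome do.
THOC2 AT-AC intron, 5′ site: acaATATCC
THOC2 AT-AC intron, 3′ site: TCCCTTAATTTGTCATCTACtca
The exon after it can begin 6 nt further on, and the intron then ends with AA. Use of the site shown was 0.810 and 0.802 in the controls and 0.926 and 0.919 after depletion in whole cells, without overlap, with an unadjusted p of 0.0331 and an adjusted p of 0.656.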

How the data were processed

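RNA of U2OS whole cells and cytoplasm was sequenced as TruSeq stranded mRNA libraries on a NextSeq. The authors mapped reads with STAR 2.5.2b to hg19 and ran rMATS (version not given in the sources used here). The 10 deposited rMATS tables hold, per event, the reads of each form, those of both libraries of a group joined in 1 cell, and the length of each form. The 20 columns of inclusion levels and the authors' p-values, FDRs and level differences were not used. A further table of cytoplasmic abundance, made by the authors with RSEM 1.2.25 and EBSeq, was not used, because its headers do not name the siRNA of either mean and its other columns hold the authors' fold changes and posterior probabilities. Tool versions are from the submitters' processing notes.

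Members, gene lists and rules were chosen with earlier results of these data known. All members were named, with every RI event, other events passing in any contrast and otherwise the event with most reads. Events were tested with a quasi-binomial model, whose Pearson dispersion was moderated by squeezeVar (R 4.3.3, limma 3.58.1), using log mean reads as trend and a floor at 1. Benjamini-Hochberg adjustment ran within event types, with a threshold of 0.05. Fractions were compared in 1 model of 8 libraries with the form lengths as offset. Gene abundance (at least 20 reads per library on average, median-ratio scaling) was tested with limma. The event test was kept as planned although it called few events. In all 7 event tests were run, 3 of the dispersion rules among them chosen after the data were seen, and they disagree on the NXF1 and DDX39B events. On simulated whole-cell data the planned test recovered 69% of changed RI, 49.5% of A3SS and 0.5% of SE events with 0 false calls in each, and the trend of the rarer form 94%, 93.5% and 69.5% with 5, 6 and 1. On simulated cytoplasmic data the planned test recovered 37.5%, 13.3% and 0%, again with 0 false calls in each. The trend of the rarer form recovered 81.7%, 86.2% and 68.5% there, with 7, 1 and 0 false calls. The changed events had a mean of at least 50 reads and neither form rare, and all events had 1 dispersion of 2. The recoveries and false calls hold for that setting only. For genes, 200 of 9660 were changed in simulated whole-cell data. A log2 change of 2 was recovered in 69% of them and a change of 1 in 0%. In the cytoplasm, with 200 of 7293 changed, these shares were 88.5% and 46.5%. In the data 2611 and 2842 genes passed, so the adjustment was stricter in the simulation. The shares therefore do not give the power on the data. Positions come from GENCODE v44 on GRCh37 (v44lift37), and the figures were drawn with matplotlib 3.10.9.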

Additional observations from a re-analysis of the deposited data

How the results depend on the processing

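No paired analysis was possible because the library columns carry no replicate number. The number of member events that passed between CHERP and EGFP siRNA in whole cells was 0 as planned, without a trend, by limma, and when each library was left out, but 1 in each of 4 other settings. The event was the NXF1 intron with the dispersion trend of the rarer form (746 events called over all genes, against 3), and the DDX39B 130-nt part with at least 10 reads (977), with at least 50 reads (1057) and with the floor at 1 before the moderation (878), the last chosen after seeing the data. Of the other rules chosen after seeing the data, a degree of freedom for every event and a trend on unlogged reads gave 0. In the cytoplasm no setting called a member event, although the rarer-form trend called 385 events over all genes against 0. Between fractions, limma on the log2 odds called 0 member events with EGFP siRNA, where 2 passed as planned, and 2 with CHERP siRNA, where 1 passed, neither of them the event called as planned. Leaving out 1 library gave 0 to 1 calls with EGFP siRNA and 0 to 1 with CHERP siRNA, where the call was lost without the first cytoplasmic CHERP library (adjusted p = 0.311). In whole-cell abundance 5 members passed, NXF1 and THOC1 added, with a pseudocount of 0.1, scaling by the total, at least 50 reads, or a limma trend. Leaving out 1 library gave 0 to 3, and no member passed without either CHERP library, where 469 and 530 genes passed in all. In cytoplasmic abundance 3 passed without a filter on reads and 2 to 4 when a library was left out, 2 without the second EGFP library. NXF1 lost its call there without a filter and without any 1 library, THOC2 without a filter and without the second EGFP library, and THOC1 without the second EGFP library. The THOC5 rise in whole cells missed the threshold with only the event of most reads (log2 0.49, adjusted p = 0.111), which also turned DDX39B to 0.0179. The same setting brought the whole-cell NXF1 log2 fold change to -0.16 (adjusted p = 0.458). ALYREF in the cytoplasm turned to -0.05331 with scaling by the total, and with 1 library left out lay between -0.0253 (without the second EGFP library) and 0.1037. Scaling by the total moved the cytoplasmic median of all genes from -0.01 to -0.11, and the share of calls that rose from 49% to 38.3%. No setting called a member for the interaction. The causes were not tested. Cytoplasmic THOC2 abundance rests on 12 to 51 reads per library, and the cytoplasmic DDX39B 130-nt event on 23 on average.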
